A study of Mus musculus with 10 samples.

Results

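The genes described here are 30 genes of branched-chain amino acid and ketone body catabolism, found by their symbols among the 24470 gene entries of the count table. They were grouped into 8 steps: uptake and mitochondrial import (3 genes), transamination (2), the branched-chain ketoacid dehydrogenase with its kinase and phosphatase (5), the steps particular to leucine (4), isoleucine (3) and valine (5), the propionate steps (5) and ketone bodies (3). RNA was measured in cultured fetal mouse testes. Male C57BL/6 gonads were taken at E12.5 with the mesonephros attached, and of the gonad pair of each of 5 embryos (M1 to M5) 1 was cultured on agar with 75 µM of the glycogen phosphorylase inhibitor CP 316819 (GPI) and its partner with the solvent DMSO (vehicle). After 48 h the mesonephros was cut away, and each gonad gave 1 library of RNA from all of its cell types. The 5 vehicle libraries held 10203679 to 15590223 counts (median 11114376) and the 5 GPI libraries 11025409 to 15635322 (median 11691690). The GPI library of M1 stood apart from its group, with a chi-square per degree of freedom over genes of 21.74 to 27.81 against the other GPI libraries, which differed from each other by 7.48 to 11.0, while pairs of vehicle libraries differed by 6.42 to 21.18; results without M1 are therefore given.

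Leucine, isoleucine and valine enter the cell through amino acid transporters, lose their amino group to branched-chain aminotransferases and are then committed to breakdown by the mitochondrial branched-chain ketoacid dehydrogenase, which a kinase switches off and a phosphatase switches on. Beyond this shared part the routes diverge: leucine yields acetyl-CoA and the ketone body acetoacetate, valine yields propionyl-CoA, isoleucine yields both acetyl-CoA and propionyl-CoA, and propionyl-CoA enters the citric acid cycle as succinyl-CoA. Ketone bodies from outside the cell are burned through 3-oxoacid CoA-transferase, and in the testis Sertoli cells are known for breaking down several fuels while passing lactate to germ cells.

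Of the 30 genes, 29 passed the low-count filter, and 11 of these 29 (37.9%) were called higher with GPI by the quasi-likelihood test of edgeR, fitted to the 13941 genes that passed with the embryo as a block and adjusted by Benjamini-Hochberg at an FDR of 0.05. Among all tested genes, 11.1% were called higher and 11.9% lower. The 30 genes were chosen with earlier results of these data known, so these shares describe the list and do not test it. The genes called higher were Bcat1, Bcat2, Dbt, Ppm1k, Acadsb, Acad8, Hibch, Aldh6a1, Abat, Pcca and Oxct1. None of the 29 was called lower by edgeR or DESeq2, 1 was lower at an unadjusted p under 0.05, and limma-voom called that gene, Slc43a1, lower. Log2 fold changes of GPI over vehicle, given here ± the standard error, had a median over the 29 genes of 0.32, against 0.02 over all tested genes, and 25 of the 29 values were positive. In 5 of the 29 genes every GPI library lay above every vehicle library, which held for 7.07% of all tested genes, and 10 of the 29 were higher in 5 of 5 embryos, which held for 15.4%. The count called higher was 12 without M1 (10 of the 11, without Bcat1, and Bdh1 and Mmaa), with 1 gene called lower, and 6 without M2, M3, M4 or M5; Dbt, Ppm1k, Hibch and Abat were called in every one of 13 alternative analyses.

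**Figure D1:**
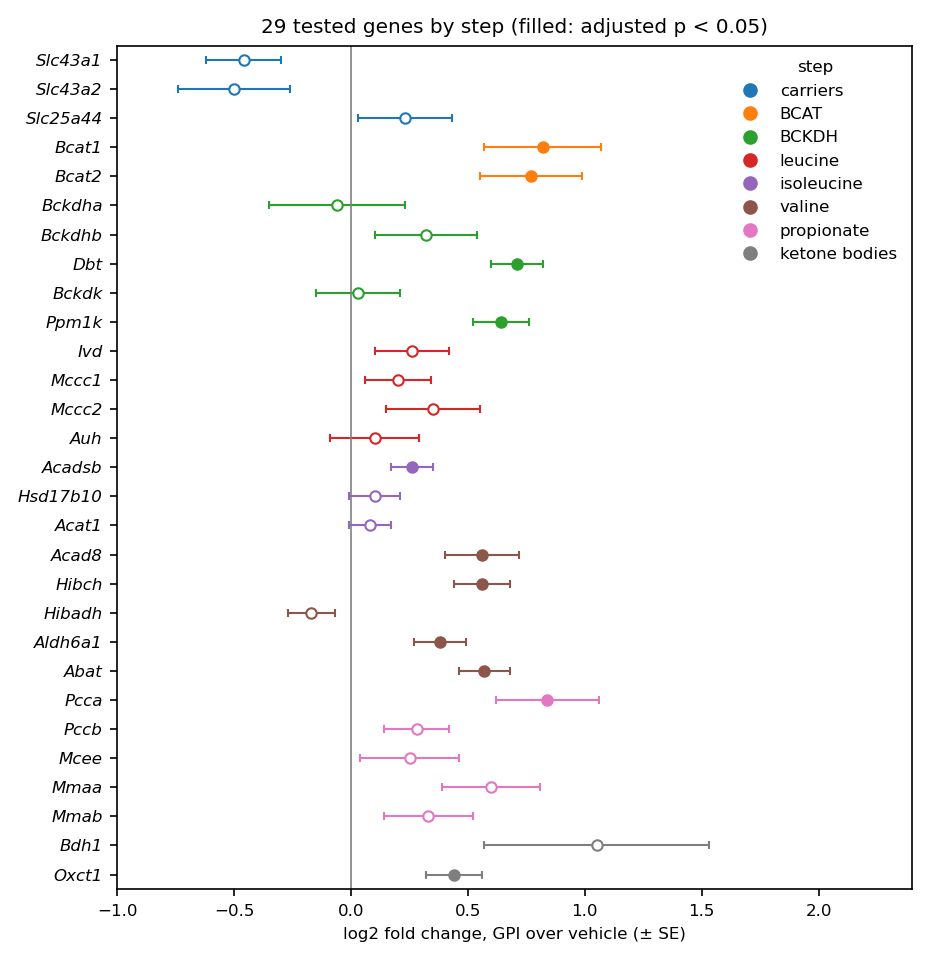
Log2 fold change of GPI over vehicle (x axis; bars, standard error; n = 5 pairs) for the 29 tested genes, coloured by step, with filled points for genes called at an FDR of 0.05. The 11 filled points lie between 0.26 and 0.84.

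Counts of all 30 genes together, as counts per 1000000 of the TMM-scaled library (CPM), were 756, 742, 784, 755 and 771 in the vehicle gonads of M1 to M5 and 822, 976, 998, 1110 and 988 in their GPI gonads. Every GPI gonad thus stood above every vehicle gonad, with M1 the lowest of the GPI group. Within embryos, the log2 ratio of GPI to vehicle had a median over the 29 tested genes of 0.13 in M1, 0.54 in M2, 0.24 in M3, 0.47 in M4 and 0.26 in M5, while over all tested genes it was 0.01 or 0.02 in each embryo. Between 20 genes (M5) and 25 genes (M4) of the 29 had a positive ratio.

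**Figure D2:**
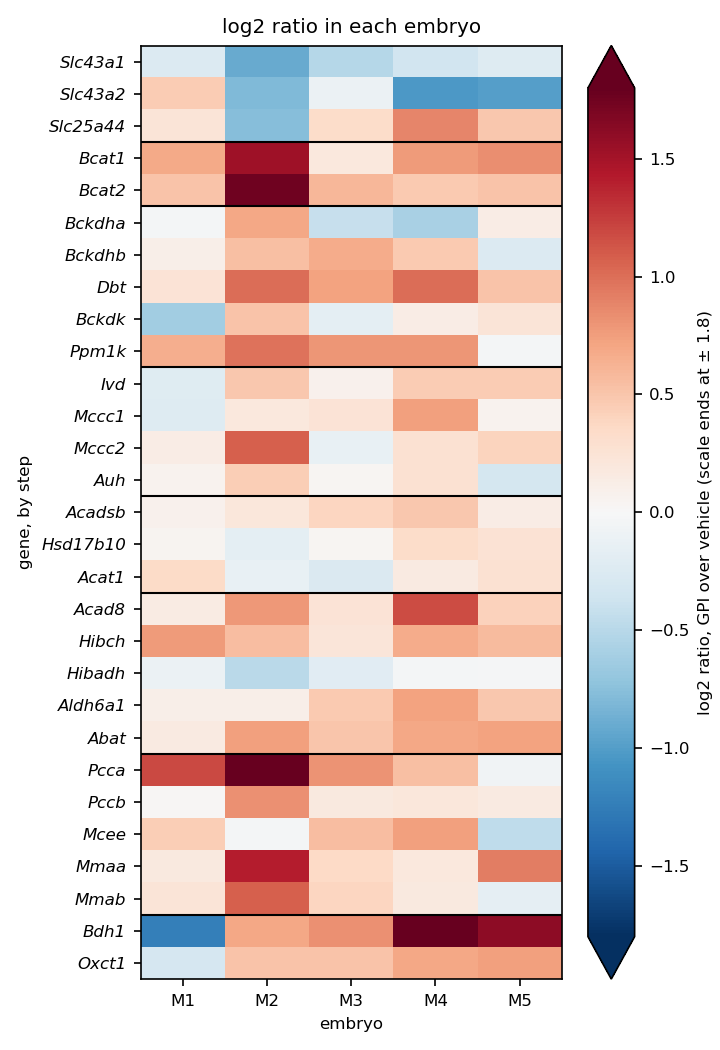
Log2 ratio of GPI over vehicle in each embryo (columns M1 to M5) for the 29 tested genes (strips, with lines between the steps); red is higher with GPI, blue lower. The strips of Dbt, Hibch and Abat are red in all 5 embryos, and those of Oxct1 and Bdh1 are blue in M1 alone.

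These are whole gonads, so that from the RNA alone fewer cells of a type and less RNA per cell cannot be told apart. For germ cells, the paper counted cells stained for the Ddx4 protein and reported significantly fewer in testes cultured with GPI than with vehicle. How much of the fall in germ cell markers follows from that lower cell number was not tested. The markers of several cell types moved with the genes above. Summed over 6 endothelial markers, CPM were 575, 603, 538, 630 and 555 with vehicle in M1 to M5 and 62.7, 76.1, 50.9, 41.9 and 52.7 with GPI, and 6 of the 6 markers were called lower, led in abundance by Cdh5 with vehicle and Kdr with GPI (log2 fold changes of -3.63 and -2.44, and -4.16 for Pecam1). Over 7 germ cell markers the sums were 79.8, 167, 102, 139 and 53.3 with vehicle and 10.7, 9.61, 3.55, 3.5 and 8.49 with GPI; of the 6 tested 5 were called lower, with Dazl the most abundant in the vehicle gonads and Ddx4 in the GPI gonads (log2 fold changes of -4.62 and -2.72). Germ and endothelial sums were thus lower in every GPI gonad than in any vehicle gonad, and of these lists Mael and Pou5f1 alone reached 0 counts, each in 3 GPI libraries. Sums over 9 Sertoli cell markers were 292, 454, 347, 437 and 481 with vehicle and 341, 636, 656, 830 and 637 with GPI. Of these markers 7 were called higher, Aard being the most abundant (0.54), with 0.59 for Sox9 and 0.08 for Amh, which was not called; the Sertoli sum of M1 was the lowest of its group under either treatment. The sums over 5 fetal Leydig cell markers were 104, 219, 323, 162 and 430 with vehicle and 782, 821, 1280, 1470 and 1050 with GPI. All 4 Leydig markers tested were called higher, with 3.90 for Cyp17a1, 2.90 for Cyp11a1, the most abundant with GPI, and 1.75 for Hsd3b1, the most abundant with vehicle, and Insl3 had 0 counts in 2 vehicle and 2 GPI libraries.

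Blood cell markers were lower as well. Sums over 5 macrophage markers were 50.9, 33.6, 44.5, 37 and 32.2 with vehicle and 27.4, 23.3, 21.5, 13.7 and 13.1 with GPI, and 4 of 5 were called lower, with -2.22 for Csf1r, -0.76 for the most abundant, Cd68, and -0.26 for Adgre1, which was not called; C1qa had 0 counts in 1 GPI library. For 5 erythroid markers the sums were 124, 154, 292, 269 and 234 with vehicle and 109, 63.2, 60.2, 66.2 and 151 with GPI, and 5 of 5 were called lower, with -0.75 for Alas2 and -0.98 for Hbb-y, the most abundant. Interstitial markers were mixed, 2 of 5 called higher and 2 lower (summed CPM 1070 to 1250 with vehicle and 1120 to 1390 with GPI; 0.33 for Pdgfra, the most abundant, and -0.18 for Nr2f2, which was not called). The 3 coelomic epithelium markers did not pass the test (sums 44.1 to 66.9 and 52.6 to 70.2; 0.23 for Upk3b and -0.05 for Krt19). Of 3 mesonephric tubule markers only Pax8 could be tested and was not called (-0.28; sums 4.39 to 36 and 7.34 to 16.6), and Pax2 ranged from 0 to 29.2 normalized counts. Of 4 pre-granulosa markers 1 of 3 tested was called lower, Wnt4, the most abundant (-0.78), and Foxl2 was not called (-0.54; sums 76.7 to 110.0 and 41.3 to 76.5). The part of these cell types in the changes of the catabolic genes was not tested.

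Per transcript length, the genes of these routes spanned a wide range of levels in the vehicle gonads. Oxct1 stood first with a mean of 154 transcripts per 1000000 (TPM), followed by Acat1 (91.6), Hsd17b10 (81.3), Dbt (44.4) and Ppm1k (37.7). The lowest of the 29 tested genes were Bcat1 (1.27 TPM), Bdh1 (1.47), Slc43a2 (3.39) and Mmaa (3.48). The first 5 genes stood in the same order with GPI. TPM are shares of each library's sum without the TMM factors, so they serve here to compare genes within a group; for Acat1 and Hsd17b10, neither of them called, the TPM means were lower with GPI (88.5 and 80.3) while the fitted log2 fold changes were 0.08 and 0.10.

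**Figure D3:**
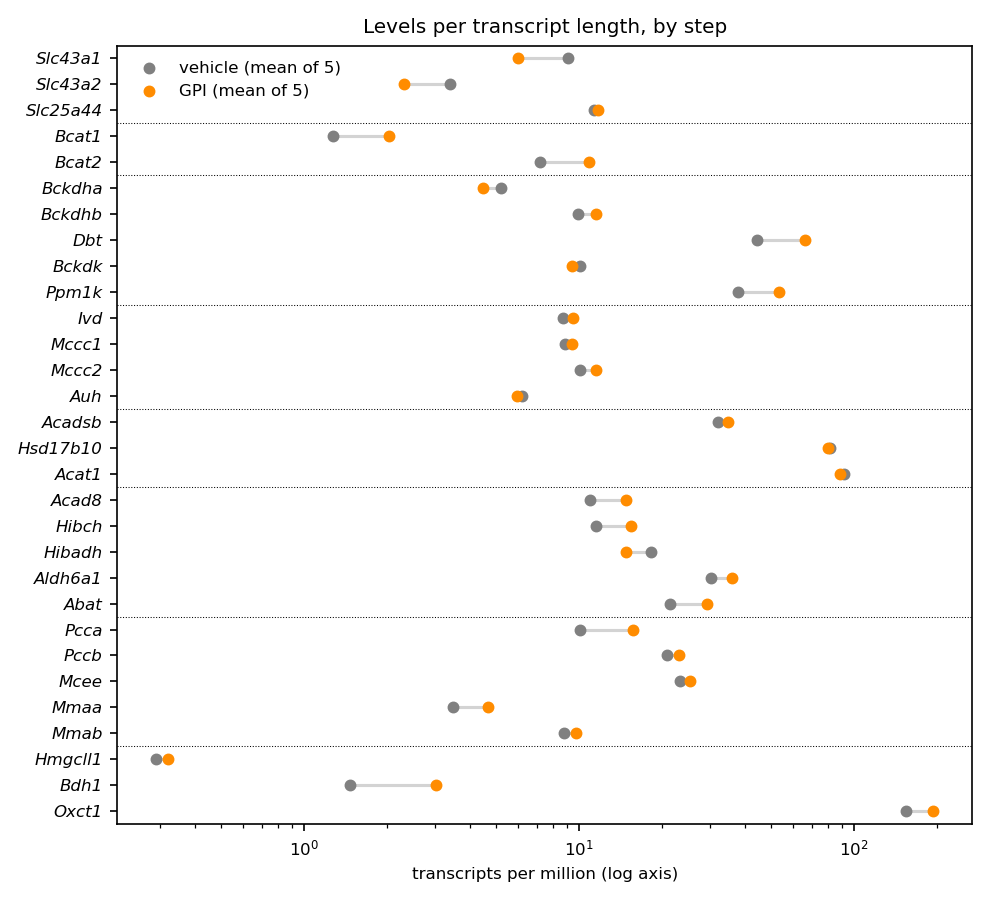
Mean level per transcript length of the 30 genes in 5 vehicle and 5 GPI gonads (x axis, TPM without TMM factors, log axis), with dotted lines between the steps. Oxct1 is highest at 154 with vehicle and 194 with GPI, and Hmgcll1 lowest at 0.29 and 0.32.

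Promoters of the genes were searched because several of them moved together. RefSeq promoter sequences (build GRCm38.p6, 250 bases before to 50 after an annotated start) were at hand for 26 of the 30 genes, 34 promoters in all. An annotated start can differ from the start in the gene positions given here, as it does for Ppm1k. Searched on both strands were the extended site shared by NR5A1 and the estrogen-related receptors (CAAGGTCA), the core of the NRF1 site (GCGCATGC), the cAMP response element (TGACGTCA), the E-box (CACGTG), the composite site of ATF4 with C/EBP (TGATGCAAT), an ETS site (CCGGAAGT) and the direct repeat bound by PPAR, which is AGGTCA written 2 times with 1 base between; AGGTCA is also the end of the extended NR5A1 site. The E-box was found in 2 of the 34 promoters (5.88%, against 7.15% of all 32851 promoters) and the NRF1 core in 1 (2.94%, against 2.71%). The other 5 motifs were found in 0 of the 34; among all promoters their shares were 1.56% for the NR5A1 site, 1.79% for the cAMP response element, 0.192% for ATF4 with C/EBP, 3.89% for ETS and 0.0396% for the PPAR repeat. The 13 promoters of 9 of the genes called higher (Dbt and Abat were not searched) held none of the 7 motifs, which says only that these letters are not in these windows. The median GC content was 58% in the 34 promoters and 52.7% in all promoters, and the median number of CpG dinucleotides 16.5 and 7.

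Of the 3 genes of uptake and import, 0 were called by edgeR or DESeq2, 1 had an unadjusted p under 0.05, and 1 was called by limma-voom. Slc43a1, a transporter of large neutral amino acids of the plasma membrane, had 103, 192, 148, 141 and 132 normalized counts in the vehicle gonads of M1 to M5 and 86.2, 101, 104, 112 and 112 in their GPI gonads, where a normalized count is the count scaled by edgeR's TMM factors to the mean library size. The GPI gonad was the lower of the pair in each embryo, but the groups overlapped, and at -0.46 ± 0.16 (edgeR adjusted p = 0.058) the log2 fold change was not past the threshold. With limma-voom the adjusted p was 0.046 and with total counts only 0.04, within a range of 0.04 to 0.176 over 13 alternatives. Its relative Slc43a2, which overlaps the microRNA gene Mir3971 (2 counts), had 79.3 to 116 normalized counts with vehicle and 50.3 to 125 with GPI, for a log2 fold change of -0.50 ± 0.24 (edgeR adjusted p = 0.163), and M1 alone was higher with GPI; without M1 it was called lower (-0.77, adjusted p = 0.0293, range 0.0293 to 0.433). Slc25a44, the carrier that brings branched-chain amino acids into mitochondria, had 109 to 272 normalized counts with vehicle and 159 to 221 with GPI and a log2 fold change of 0.23 ± 0.20 (edgeR adjusted p = 0.474), higher in 4 of 5 embryos, and was called without M2 alone among the alternatives (0.48, adjusted p = 0.0496, range 0.0496 to 0.885).

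Both aminotransferases were higher with GPI. Bcat2, the mitochondrial enzyme (Entrez Gene 12036, chromosome 7 from 45570153 to 45589710 of mm10), had 53.2, 29.8, 65.9, 80.7 and 69.3 normalized counts with vehicle in M1 to M5 and 77.2, 105, 101, 113 and 100.2 with GPI. The groups overlapped only through the GPI gonad of M1, which lay below the vehicle gonad of M4, and each embryo was higher with GPI. This gave a log2 fold change of 0.77 ± 0.22 (edgeR adjusted p = 0.0239); the ratio of M2, 1.75, stood apart from the others, which were at most 0.60, and the adjusted p was 0.0642 without M2 and 0.065 without M3 (range 0.0107 to 0.065). The antisense gene 0610005C13Rik overlaps Bcat2 and took 25 counts beside 808 of Bcat2 over the 10 libraries. Bcat1, the cytosolic enzyme (Entrez Gene 12035, chromosome 6 from 144993835 to 145076157), had 81.9, 22.7, 44.7, 33.9 and 17.5 with vehicle and 132, 68.9, 51.3, 58.9 and 32.7 with GPI. M1 was highest under either treatment and M5 lowest, so that the groups overlapped widely although each of the 5 embryos was higher with GPI. Compared by pair, the log2 fold change was 0.82 ± 0.25 (edgeR adjusted p = 0.0322). This call was lost without the block for embryo (adjusted p = 0.2) and without M1 (0.0835), M2 (0.0946), M4 (0.0825) or M5 (0.0671), within a range of 0.0228 to 0.2. Per length, the level of Bcat1 over that of Bcat2 was 0.0671 to 0.41 with vehicle and 0.0866 to 0.454 with GPI, higher with GPI in 3 of 5 embryos, a ratio that was not tested.

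Of the subunit genes of the dehydrogenase itself, Dbt was called and Bckdha and Bckdhb were not. Dbt, the transacylase core (E2) of the dehydrogenase complex (Entrez Gene 13171, chromosome 3 from 116513079 to 116549981), had 639, 478, 636, 591 and 587 normalized counts with vehicle in M1 to M5 and 761, 966, 1057, 1192 and 837 with GPI. No vehicle gonad reached the lowest GPI gonad, that of M1, and all embryos were higher with GPI. Over the 5 pairs the log2 fold change was 0.71 ± 0.11 (edgeR adjusted p = 0.000421). Bckdha and Bckdhb encode the subunits of the decarboxylase (E1). Bckdha had 20.3 to 52.6 normalized counts with vehicle and 29.1 to 57.7 with GPI, with a log2 fold change of -0.06 ± 0.29 (edgeR adjusted p = 0.92), higher in 2 of 5 embryos, and its sign turned without M3 (0.02) or M4 (0.09). Bckdhb had 53.2 to 67.7 normalized counts with vehicle and 50.1 to 94.7 with GPI and a log2 fold change of 0.32 ± 0.22 (edgeR adjusted p = 0.329), higher in 4 of 5 embryos. The level of Dbt per length over that of Bckdha was 6.42 to 13.6 with vehicle (median 8.63) and 8.34 to 20.4 with GPI (median 16.3), and it was higher with GPI in 5 of 5 embryos; the ratio was not tested.

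To compare the enzymes that switch the complex, its phosphatase and kinase were set side by side. Ppm1k, the phosphatase that activates the complex (Entrez Gene 243382, chromosome 6 from 57506502 to 57535426), had 798, 648, 821, 859 and 1058 normalized counts with vehicle and 1250.2, 1281, 1429, 1489 and 1031 with GPI. In M1 to M4 the GPI gonads lay above all vehicle gonads, while in M5 the gonads were close to each other and the GPI gonad lay within the vehicle range. The fitted log2 fold change was 0.64 ± 0.12 (edgeR adjusted p = 0.00169), with an adjusted p of 1.11e-05 to 0.0154 over 13 alternatives. Bckdk, the kinase that inactivates it, had 105 to 157 normalized counts with vehicle and 102 to 202 with GPI and a log2 fold change of 0.03 ± 0.18 (edgeR adjusted p = 0.942), lower with GPI in M1 and M3 and higher in the others, and the sign of this value turned with total counts only (-0.03) and without M2 (-0.10) or M5 (-0.03), and it was 0.00 without M4. Per length, Ppm1k over Bckdk was 2.82 to 5.09 with vehicle (median 3.22) and 3.89 to 7.88 with GPI (median 6.35), higher with GPI in 4 of 5 embryos; a test of this ratio was not made. The promoter of Ppm1k (chr6:57535438-57535737, minus strand) is shown as that of a gene called in every analysis. It lies wholly upstream of the gene position given above, because its annotated start differs from that position. None of the 7 motifs is in it, so no base is in capitals.
Ppm1k: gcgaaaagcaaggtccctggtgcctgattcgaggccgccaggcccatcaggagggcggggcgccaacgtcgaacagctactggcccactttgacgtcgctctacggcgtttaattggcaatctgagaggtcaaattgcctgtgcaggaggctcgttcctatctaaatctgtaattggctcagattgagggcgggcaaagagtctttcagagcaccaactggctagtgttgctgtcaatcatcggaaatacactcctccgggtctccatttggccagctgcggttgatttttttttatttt

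**Figure D4:**
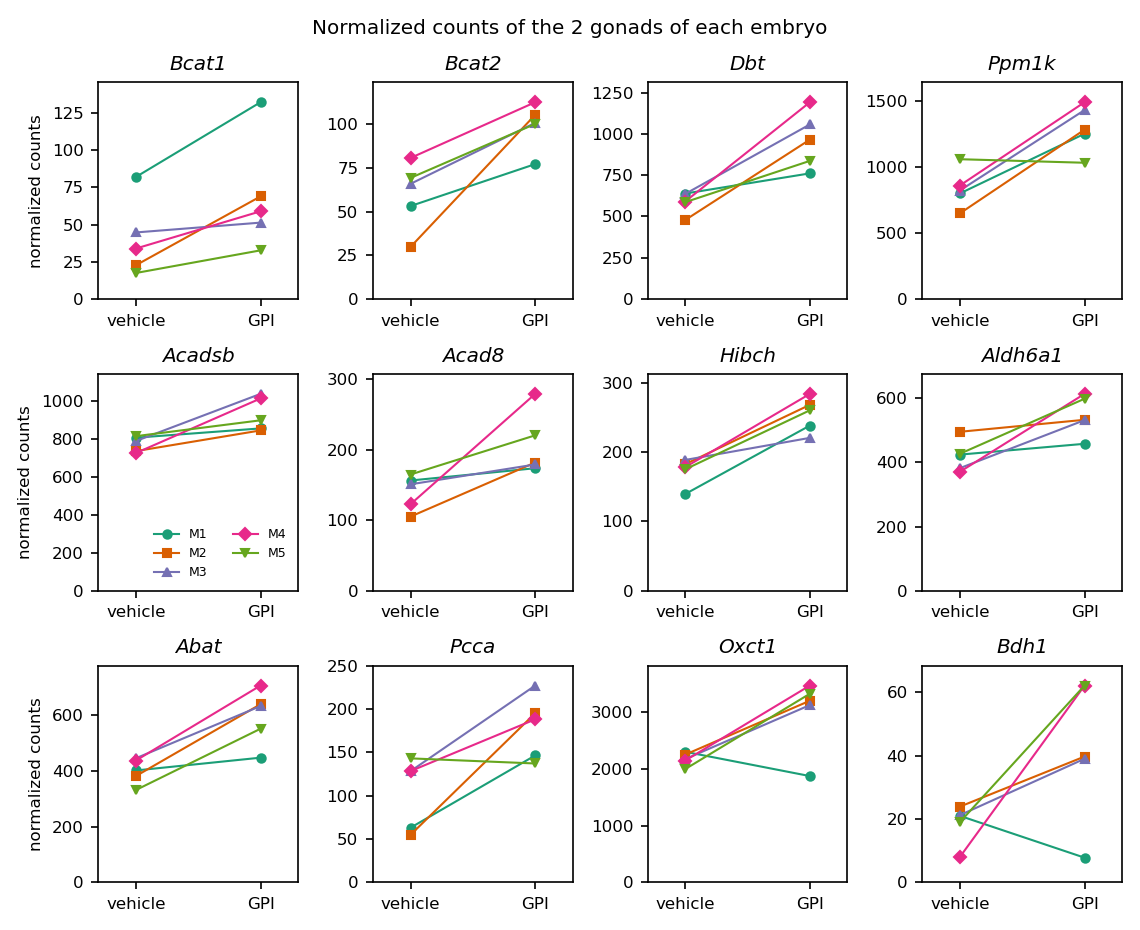
Normalized counts (y axis, from 0) of the vehicle and the GPI gonad of each embryo, joined by lines, for the 11 genes called higher and Bdh1. Lines slope up in all 5 embryos for 8 of the 11 genes; those of M5 are nearly level for Ppm1k and Pcca, and those of M1 slope down for Oxct1 and Bdh1.

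None of the 4 genes particular to leucine was called by edgeR, DESeq2 or limma-voom, and 0 had an unadjusted p under 0.05. Ivd, isovaleryl-CoA dehydrogenase, had 132, 118, 157, 116 and 118 normalized counts with vehicle and 113, 167, 166, 159.9 and 162 with GPI. The GPI gonad of M1 was the lowest of all, and those of the other embryos exceeded every vehicle gonad. This gave a log2 fold change of 0.26 ± 0.16 (edgeR adjusted p = 0.279). Mccc1 and Mccc2, the subunits of methylcrotonyl-CoA carboxylase, had log2 fold changes of 0.20 (adjusted p = 0.335) and 0.35 (adjusted p = 0.244) (edgeR), each higher in 4 of 5 embryos. Mccc1 had 202 to 314 normalized counts with vehicle and 239.6 to 376 with GPI, and it overlaps the antisense gene Mccc1os, which took 115 counts against 2588. Mccc2 had 53.7 to 108 normalized counts with vehicle and 91.3 to 119 with GPI. Auh, methylglutaconyl-CoA hydratase, which also binds RNA, had 58.5 to 102 normalized counts with vehicle and 80.3 to 91.5 with GPI and a log2 fold change of 0.10 ± 0.19 (edgeR adjusted p = 0.762), higher in 4 of 5 embryos. The median of the 4 genes was 0.23 and ran from 0.14 to 0.33 when embryos were left out in turn. Whether the leucine genes differ from the valine genes was not tested. The genes with an E-box in their promoter were Mccc2 and Slc43a1; that of Mccc2 (chr13:100015590-100015889, minus strand) is shown with the E-box in capitals, its first base 9 bases before the start.
Mccc2: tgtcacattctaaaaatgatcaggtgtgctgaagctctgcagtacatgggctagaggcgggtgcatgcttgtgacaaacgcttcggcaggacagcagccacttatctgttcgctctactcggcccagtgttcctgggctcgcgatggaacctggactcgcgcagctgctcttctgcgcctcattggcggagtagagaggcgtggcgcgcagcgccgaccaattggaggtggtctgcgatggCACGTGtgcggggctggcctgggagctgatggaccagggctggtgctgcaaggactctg

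Isoleucine shares its last enzymes with other routes, and here 1 of 3 genes was called. Acadsb, the short and branched-chain acyl-CoA dehydrogenase (Entrez Gene 66885, chromosome 7 from 131410601 to 131446211), had 807, 736, 789.5, 726 and 815 normalized counts with vehicle and 856, 846, 1038, 1014 and 899 with GPI. The groups did not overlap, the closest gonads being the vehicle gonad of M5 and the GPI gonad of M2. The difference was small, with a log2 fold change of 0.26 ± 0.09 (edgeR adjusted p = 0.0432), and the call was lost under 9 of 13 alternatives, with adjusted p from 0.0299 to 0.21: 0.0576 with DESeq2, 0.103 when scaled by total counts, 0.0553 unfiltered, 0.0508 when 10 counts were asked of each library, 0.0992 when trends on GC and length were removed, and without M2 (0.0555), M3 (0.21), M4 (0.19) or M5 (0.0576). Hsd17b10, a mitochondrial dehydrogenase that is also part of mitochondrial RNase P, had 300.1 to 341 normalized counts with vehicle and 302 to 425 with GPI and a log2 fold change of 0.10 ± 0.11 (edgeR adjusted p = 0.57), higher in 4 of 5 embryos. Acat1, the mitochondrial thiolase that also closes the use of ketone bodies, had 1128 to 1410.3 normalized counts with vehicle and 1181 to 1432 with GPI and a log2 fold change of 0.08 ± 0.09 (edgeR adjusted p = 0.633), higher in 3 of 5 embryos, and its sign turned without M1 (-0.01).

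Of the 5 genes of the valine route 4 were called, 3 without M2 or without M3 and 2 (Hibch and Abat) without M4 or without M5. Acad8, isobutyryl-CoA dehydrogenase (Entrez Gene 66948, chromosome 9 from 26974138 to 26999549), had 156, 105, 151, 122 and 165 normalized counts with vehicle and 174, 182, 179, 279 and 220.1 with GPI. The lowest GPI gonad, of M1, was just above the highest vehicle gonad, of M5, and M4 had the highest GPI value. Compared by pair, the log2 fold change was 0.56 ± 0.16 (edgeR adjusted p = 0.025); the adjusted p was 0.0733 without M2, 0.134 without M4 and 0.0506 without M5 (range 0.0112 to 0.134). Hibch, which releases free 3-hydroxyisobutyrate from its CoA ester (Entrez Gene 227095, chromosome 1 from 52845038 to 52920986), had 139.5, 183, 189, 178 and 175 with vehicle and 238, 268, 221, 284 and 260.4 with GPI. All GPI gonads were above all vehicle gonads, among which M1 was lowest. Over the 5 pairs the log2 fold change was 0.56 ± 0.12 (edgeR adjusted p = 0.0048), with an adjusted p of 0.0027 to 0.0277 over the alternatives. Hibadh, the next enzyme of the route, was not called. It had 372, 498, 449, 427 and 476 with vehicle and 344, 357, 389, 419.8 and 468 with GPI. The GPI gonad was the lower of each pair, by little in M4 and M5, and the groups overlapped. The fitted log2 fold change was -0.17 ± 0.10 (edgeR adjusted p = 0.272). The promoter of Hibch (chr1:52844788-52845087, plus strand), another gene called in every analysis, likewise holds none of the 7 motifs.
Hibch: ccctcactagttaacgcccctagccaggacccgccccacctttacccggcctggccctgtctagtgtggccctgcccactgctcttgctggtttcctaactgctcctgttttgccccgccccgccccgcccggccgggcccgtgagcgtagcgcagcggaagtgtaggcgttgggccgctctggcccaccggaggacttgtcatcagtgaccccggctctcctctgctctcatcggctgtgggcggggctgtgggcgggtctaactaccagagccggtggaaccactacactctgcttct

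Aldh6a1, methylmalonate semialdehyde dehydrogenase, which turns the valine intermediate into propionyl-CoA (Entrez Gene 104776, chromosome 12 from 84430717 to 84451024), had 424, 495, 382, 370.5 and 427 normalized counts with vehicle and 458, 533, 532, 613 and 598 with GPI. All embryos were higher with GPI, but the vehicle gonad of M2 exceeded the GPI gonad of M1, so the groups overlapped. This gave a log2 fold change of 0.38 ± 0.11 (edgeR adjusted p = 0.022); without M3, M4 or M5 the adjusted p was 0.102, 0.117 and 0.0753 (range 0.0135 to 0.117). Its neighbour Bbof1 overlaps it on the other strand and took 872 counts beside 4829, and reads of the overlap cannot be assigned to either gene. Abat, a mitochondrial transaminase best known for degrading the transmitter GABA (Entrez Gene 268860, chromosome 16 from 8513429 to 8621568), had 401, 381, 444, 436 and 331 with vehicle and 447, 638, 631, 705 and 550.3 with GPI. The groups did not overlap, though the GPI gonad of M1 was only just above the vehicle gonad of M3. Compared by pair, the log2 fold change was 0.57 ± 0.11 (edgeR adjusted p = 0.00138), with an adjusted p of 7.68e-05 to 0.0103 over the alternatives. The median log2 ratio of the 5 valine genes was positive in each embryo, 0.15 in M1, 0.55 in M2, 0.24 in M3, 0.69 in M4 and 0.49 in M5. This also held for transamination (0.6, 1.64, 0.4, 0.62 and 0.67 in M1 to M5). It held as well for the dehydrogenase with its kinase and phosphatase (0.1, 0.69, 0.67, 0.47 and 0.13). Each of the remaining steps had a negative median in some embryo.

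Of the propionate steps 1 of 5 genes was called. Pcca and Pccb encode the subunits of propionyl-CoA carboxylase. Pcca, the biotin-carrying subunit (Entrez Gene 110821, chromosome 14 from 122534328 to 122889944), had 63.1, 54.9, 128, 128 and 143 normalized counts with vehicle and 147, 195, 227, 188 and 137 with GPI. Vehicle values were low in M1 and M2, whose GPI gonads were then above all vehicle gonads, while the gonads of M5 differed little. Over the 5 pairs the log2 fold change was 0.84 ± 0.22 (edgeR adjusted p = 0.0146), higher in 4 of 5 embryos; the adjusted p was 0.0549 without M2 and 0.0565 without M3 (range 0.00138 to 0.0565). Pccb had 177, 152, 211, 225 and 204 with vehicle and 180.2, 270.0, 239.6, 261 and 229 with GPI. Each embryo was higher with GPI, by 0.82 on the log2 scale in M2 and by at most 0.21 in the others, and the groups overlapped. The fitted log2 fold change was 0.28 ± 0.14 (edgeR adjusted p = 0.167). Per length, Pccb over Pcca was 1.59 to 3.14 with vehicle and 1.18 to 1.86 with GPI, and it was higher with GPI in 1 of 5 embryos; the ratio was not tested. The promoter of Pccb (chr9:101034835-101035134, minus strand) is the single promoter of these genes with the NRF1 core, in capitals, its first base 35 bases before the start.
Pccb: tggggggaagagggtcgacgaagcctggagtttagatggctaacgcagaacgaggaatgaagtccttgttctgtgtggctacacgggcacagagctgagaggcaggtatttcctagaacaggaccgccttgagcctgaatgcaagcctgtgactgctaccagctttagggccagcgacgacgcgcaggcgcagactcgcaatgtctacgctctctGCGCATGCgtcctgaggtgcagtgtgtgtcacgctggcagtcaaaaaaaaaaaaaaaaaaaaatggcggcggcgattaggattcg

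Mcee, the epimerase that prepares methylmalonyl-CoA for the mutase, had 65.9 to 103 normalized counts with vehicle and 74.1 to 115 with GPI and a log2 fold change of 0.25 ± 0.21 (edgeR adjusted p = 0.454), higher in 3 of 5 embryos. Mmaa and Mmab handle the cobalamin cofactor of the mutase, Mmaa as its chaperone and Mmab as the adenosyltransferase. Mmaa had 78.6, 37.0, 93.8, 109.6 and 73.9 normalized counts with vehicle and 88.4, 102, 121, 125 and 142 with GPI. Each embryo was higher with GPI and the groups overlapped through the GPI gonads of M1 and M2. With a log2 fold change of 0.60 ± 0.21 (edgeR adjusted p = 0.0561) it was just outside the threshold, and it was called with no low-count filter (adjusted p = 0.0353) or without M1 (0.0453), within a range of 0.0353 to 0.175. Mmab had 64.4 to 157 normalized counts with vehicle and 96.3 to 156 with GPI and a log2 fold change of 0.33 ± 0.19 (edgeR adjusted p = 0.243), higher in 4 of 5 embryos. The mutase itself, Mmut, which belongs to the list of pathway partners, had 747, 592, 654, 734 and 687 with vehicle and 659, 888, 918, 1143 and 808 with GPI. M1 was lower with GPI and the others higher, M4 most. This gave a log2 fold change of 0.36 ± 0.11 (edgeR adjusted p = 0.0365), and the call was lost with total counts only (adjusted p = 0.0653) and without M2 (0.117), M3 (0.158), M4 (0.165) or M5 (0.0601), within a range of 0.00258 to 0.165.

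Of the 2 ketone body genes tested 1 was called higher, Oxct1, the CoA-transferase that activates acetoacetate. Per length it was the most abundant of the 30 genes. Oxct1 (Entrez Gene 67041, chromosome 15 from 4026428 to 4155344) had 2305, 2255, 2176, 2150.5 and 1999.9 normalized counts with vehicle and 1877, 3207, 3130.3, 3475 and 3331 with GPI. The GPI gonads of M2 to M5 lay far above all vehicle gonads, and the GPI gonad of M1 lay below all of them. Across the 5 pairs the log2 fold change was 0.44 ± 0.12 (edgeR adjusted p = 0.0185). Without M1 it was 0.60 (adjusted p = 5.76e-05), and the call was lost without M2 (0.0621), M3 (0.0864), M4 (0.0889) or M5 (0.0861), within a range of 5.76e-05 to 0.0889. The gene BC037032 overlaps Oxct1 on the other strand with 452 counts beside 25990. The promoter of Oxct1 (chr15:4026178-4026477, plus strand) holds none of the 7 motifs.
Oxct1: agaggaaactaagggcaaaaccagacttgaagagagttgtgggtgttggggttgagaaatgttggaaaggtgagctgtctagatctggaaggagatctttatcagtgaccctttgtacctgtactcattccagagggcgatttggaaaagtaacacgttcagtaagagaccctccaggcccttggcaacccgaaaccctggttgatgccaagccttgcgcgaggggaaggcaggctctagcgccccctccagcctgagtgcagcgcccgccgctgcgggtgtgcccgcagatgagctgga

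Bdh1, the mitochondrial dehydrogenase that turns hydroxybutyrate into acetoacetate, had 21.0, 23.9, 21.2, 8.0 and 19.0 normalized counts with vehicle and 7.8, 39.7, 39.0, 62.1 and 62.1 with GPI. The direction in M1 was again opposite to that in the other 4 embryos, and the counts were few. Compared by pair, the log2 fold change was 1.05 ± 0.48 (edgeR adjusted p = 0.138), and without M1 Bdh1 was called higher (1.49, adjusted p = 0.0154, range 0.0154 to 0.446). Hmgcll1, a lyase outside mitochondria, did not pass the low-count filter, with 46 counts over the 10 libraries and at most 10.9 normalized counts in any of them; fitted by DESeq2 or with no such filter it was not called (log2 fold changes of 0.39 and 0.35, adjusted p = 0.872 and 0.879), and 2 of 5 embryos were higher with GPI. Per length, Oxct1 over Acat1 was 1.49 to 1.97 with vehicle and 1.27 to 2.56 with GPI; M1 had the highest ratio of the vehicle group and the lowest of the GPI group, and the other 4 embryos were higher with GPI. This ratio was not tested.

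The list of pathway partners holds 25 other genes of these routes, of which 23 were tested. With GPI 11 of them were called higher (47.8%) and 1 lower (4.35%), beside 11.1% and 11.9% of all tested genes. The median log2 fold change of the 23 was 0.36. This list was likewise chosen with earlier results of these data known. At the plasma membrane, Slc3a2, the heavy chain of the leucine exchangers, had 403, 572, 542, 492 and 547 normalized counts with vehicle and 945, 773, 908, 781 and 649 with GPI. The groups did not overlap. Over the 5 pairs the log2 fold change was 0.66 ± 0.12 (edgeR adjusted p = 0.00129). Slc7a8, a light chain that pairs with it, had a log2 fold change of 0.99 ± 0.24 (edgeR adjusted p = 0.00942), higher in 4 of 5 embryos, with an adjusted p of 0.0531 without M5 (range 0.000237 to 0.0531), and Slc16a1, which carries lactate and ketone bodies across the membrane, had a log2 fold change of 0.65 ± 0.11 (edgeR adjusted p = 0.000856), higher in 5 of 5 embryos.

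Dld, the E3 subunit that the branched-chain complex shares with pyruvate dehydrogenase, was the most abundant partner in counts. It had 2304, 2274, 2527, 2498 and 2242 normalized counts with vehicle and 2702, 2723, 2923, 2956 and 2788 with GPI. The groups did not overlap and the ratios of the embryos were close, 0.21 to 0.31 on the log2 scale. The fitted log2 fold change was 0.25 ± 0.06 (edgeR adjusted p = 0.0111), with an adjusted p of 0.0576 without M3 (range 0.00531 to 0.0576). Hydratase, dehydrogenase and thiolase genes among the partners were called in part. Echs1, the crotonase that acts on valine and isoleucine intermediates, had a log2 fold change of 0.74 ± 0.11 (edgeR adjusted p = 0.000287), and Hadh, hydroxyacyl-CoA dehydrogenase, had a log2 fold change of 0.50 ± 0.09 (edgeR adjusted p = 0.00114), both higher in 5 of 5 embryos with no overlap of the groups. Acaa2, a mitochondrial thiolase, had a log2 fold change of 0.67 ± 0.08 (edgeR adjusted p = 5.57e-05), higher in 5 of 5 embryos, also without overlap. Aldh2, the mitochondrial aldehyde dehydrogenase, had a log2 fold change of 0.54 ± 0.12 (edgeR adjusted p = 0.00361), higher in 5 of 5 embryos. Not called were Hadha and Hadhb, the subunits of the mitochondrial trifunctional protein, with log2 fold changes by edgeR of 0.02 (adjusted p = 0.876) and 0.03 (adjusted p = 0.876), each higher in 2 of 5 embryos. Both signs turned with total counts only (-0.03 and -0.02), without M2 (-0.03 and -0.07) and without M3 (-0.02 and -0.04), and that of Hadhb also with the GC and length trend removed (-0.02). Garem2 overlaps Hadha on the other strand with 33 counts beside 14757. Acads, the short-chain acyl-CoA dehydrogenase, at a log2 fold change of 0.07 (adjusted p = 0.86), or -0.17 without M3, was higher in 3 of 5 embryos, and Ehhadh, the peroxisomal bifunctional enzyme, at 0.97 (adjusted p = 0.0839), in 5 of 5 embryos. Aldh7a1, an aldehyde dehydrogenase, was at 0.35 (adjusted p = 0.0996), higher in 4 of 5 embryos, and was called without M5 (0.48, adjusted p = 0.0445, range 0.0445 to 0.314). Phax and Mir1258 overlap Aldh7a1 on the other strand and took 9016 counts beside 3427, and since counting was without strand, reads of the overlap cannot be assigned to one of them.

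Partners of ketone body metabolism were called as well. Bdh2, a cytosolic hydroxybutyrate dehydrogenase, had a log2 fold change of 0.93 ± 0.25 (edgeR adjusted p = 0.0164), higher in 5 of 5 embryos, with an adjusted p of 0.0872 without M3 and 0.0702 without M5 (range 0.00742 to 0.0872). Acat2, the cytosolic thiolase, had 369, 358, 349.5, 272 and 289 with vehicle and 289, 584, 482, 625 and 649 with GPI. As for Oxct1, the GPI gonad of M1 was below its vehicle partner and the other GPI gonads were above all vehicle gonads. Compared by pair, the log2 fold change was 0.65 ± 0.18 (edgeR adjusted p = 0.0188), and the adjusted p was 0.062 without M2, 0.0979 without M4 and 0.0941 without M5 (range 0.000224 to 0.0979). Oxct2a and Oxct2b, relatives of Oxct1 known from later male germ cells, had 0 and 5 counts over all 10 libraries.

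Of 9 regulators 6 (66.7%) were called higher and 0 lower by edgeR, beside 11.1% and 11.9% of all tested genes. By DESeq2 or limma-voom, or at an unadjusted p under 0.05, 0 were called lower. The list of regulators was also chosen with earlier results of these data known. Klf15, a transcription factor known to induce genes of branched-chain amino acid breakdown, had 3.3, 8.4, 15.6, 11.0 and 3.8 normalized counts with vehicle and 19.0, 23.5, 35.2, 24.2 and 31.6 with GPI. Counts were few, yet the groups did not overlap. Over the 5 pairs the log2 fold change was 1.76 ± 0.43 (edgeR adjusted p = 0.00848). Ppara, a nuclear receptor known for driving fatty acid oxidation and ketone synthesis, had 39.9, 38.2, 60.3, 43.8 and 83.0 with vehicle and 125, 165, 155, 149 and 143 with GPI. All GPI gonads exceeded all vehicle gonads, of which M5 was highest. The fitted log2 fold change was 1.51 ± 0.21 (edgeR adjusted p = 0.000127). Sesn2, a leucine sensor and stress-induced gene, had a log2 fold change of 1.22 ± 0.17 (edgeR adjusted p = 0.00011), higher in 5 of 5 embryos, and no overlap either.

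Ppargc1a, a coactivator of mitochondrial genes, had a log2 fold change of 0.40 ± 0.11 (edgeR adjusted p = 0.0137), higher in 5 of 5 embryos, but was no longer past the threshold without M3 (0.0866), M4 (0.059) or M5 (0.0676), within a range of 0.00456 to 0.0866. Mlxipl, the carbohydrate-responsive factor ChREBP, had a log2 fold change of 0.65 ± 0.16 (edgeR adjusted p = 0.00906), higher in 4 of 5 embryos, with an adjusted p of 0.0618 without M3 and 0.0516 without M4 (range 0.000567 to 0.0618). Pparg, a receptor related to Ppara, had a log2 fold change of 0.93 ± 0.30 (edgeR adjusted p = 0.041), higher in 5 of 5 embryos; its call was lost with DESeq2 (0.0634), with total counts only (0.0533) and without M1 (0.154), M2 (0.0545), M3 (0.145) or M5 (0.0832), within a range of 0.0233 to 0.154. The number of regulators called higher was 3 without M3, a fit in which 6.93% of all tested genes were called higher. Whether the levels of these regulators account for those of the catabolic genes was not tested.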

How the data were processed

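RNA of 10 cultured gonads was measured, from 5 embryos with 1 vehicle and 1 GPI gonad each. Per the submitters' processing notes and the study's methods, alignment to mm10 used STAR 2.5 and counting over NCBI RefSeq Curated genes used featureCounts (Subread 1.5.0-p1), without strand; the authors deposited raw counts per gene, which entered as they are. The 30 genes, their steps and the other lists were chosen with earlier results of these data known. Counts were scaled by TMM and filtered by filterByExpr (minimum count 10, minimum total 15), leaving 13941 of 24470 entries, and tested with edgeR 4.0.16 (quasi-likelihood, R 4.3.3, embryo and treatment in the design). The standard error was taken as the size of the log2 fold change over the square root of F. Ratios in single embryos use log2 CPM with a prior count of 2. TPM used the longest GENCODE M21 transcript. Positions of genes are those of mm10.

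Gonads with the same number come from the same embryo, as the labels pair them; their deviations from the treatment means correlated at -0.04 to 0.155 (mean 0.06, against -0.015 between embryos). Chi-square per degree of freedom between libraries of a treatment was 6.42 to 27.81, highest for the GPI library of M1 (21.74 to 27.81), so none was a duplicate. Reads carried no molecular identifiers and are not independent molecules; precision therefore rests on the spread between embryos. The procedure was tested on simulated data. Named one by one were the 30 genes; of pathway partners and regulators every called gene and Mmut, Dld and Klf15; and of each marker list the first 2 and the most abundant gene. Mael, Pou5f1, Insl3, C1qa, Oxct2a, Oxct2b, Hadha, Hadhb, Acads, Ehhadh and Aldh7a1 were named after their values were seen. Some genes of this rule enter the counts over their lists but are not reported here.

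Alternatives tried were DESeq2 1.42.0, limma-voom (limma 3.58.1), a fit with no replicate block, scaling by total counts only or by the size factors of DESeq2, no filter, a filter of 10 counts in each library, removal of a loess trend (span 0.5) on GC and length with the replicate block, and each embryo left out. Tables and figures were made with matplotlib 3.10.9, pandas 2.3.3 and numpy 2.4.6 in Python 3.11.15.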

Additional observations from a re-analysis of the deposited data

Results flagged for a closer look

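For each of the 30 genes the 5 vehicle counts, the 5 GPI counts and the 5 log2 ratios were searched for a sample far from the rest by Dixon's test (critical value 0.71), 90 groups in all. In 8 groups a sample stood apart. For independent groups of normal values, chance gives about 1 in 20, or 4.5. The groups here are not independent, since the ratios rest on the same counts and the genes share libraries. The 8 groups are therefore not read as an excess. In M1 the normalized count of Oxct1 with GPI was 1876.9 and the next lowest 3130.3, and its log2 ratio was -0.30 with the next at 0.51. Ivd with GPI was also lowest in M1, at 113 against 159.9, and Hibch with vehicle was lowest there, at 139.5 against 175.2. M2 had the highest log2 ratio of Bcat2, 1.75 against 0.60, and of Pccb, 0.82 against 0.21. Mccc1 with GPI was highest in M4, at 375.6 against 267.5, and Bckdha with GPI was highest in M5, at 57.7 against 34.1.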

How the results depend on the processing

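Across 13 alternatives the number of all genes called was 2311 to 3472, against 3198; genes higher were 969 to 1430 with an embryo left out, against 1544. The number of the 30 genes called higher, 11, was 10 or 11 under the 8 alternatives that keep every embryo and 6 to 12 with an embryo left out; the fits without an embryo have fewer samples. None was called lower at first, but 1 was with limma-voom and 1 with total counts only (Slc43a1 in each), and 0 to 1 with an embryo left out (Slc43a2 without M1); the cause was not tested. Pathway partners called higher numbered 8 to 12 and called lower 1 throughout, and regulators called higher 3 to 6. Over 376 values of single genes among the 30 under the alternatives, 334 kept direction and side of the threshold, 28 no longer passed it, 7 newly passed it and 7 turned sign, none of the latter called. The sign of Bckdk, 0.03, turned with total counts only (-0.03), as did those of Hadha, 0.02 (-0.03), and Hadhb, 0.03 (-0.02, and -0.02 with the GC and length trend removed); with an embryo left out Bckdk ran from -0.10 to 0.16, Bckdha from -0.23 to 0.09, Acat1 from -0.01 to 0.14, Hadha from -0.03 to 0.07, Hadhb from -0.07 to 0.10 and Acads from -0.17 to 0.19. Of 284 values of 22 partners and regulators, 252 kept direction and side, 23 no longer passed the threshold, 1 newly passed it and 8 turned sign, none of the latter called. Without the replicate block for embryo 10 of the 30 genes were called higher and 0 lower, Bcat1 (adjusted p = 0.2) being the one lost, with 11 partners higher and 1 lower and 3108 genes in all. Hmgcll1, with 46 counts over 10 libraries, was tested only with DESeq2 and with no low-count filter and not called there, and Bdh1, Ehhadh and Klf15 have no value where each library must hold 10 counts.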
